A study of Mus musculus with 8 samples.

Results

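A set of 10 genes tied to the transcription factor ATF4 were followed through the RNA-seq libraries of expanded mouse embryonic stem (ES) cells. They were found by symbol and make up 10 of the 23337 gene names in the table of normalized counts. *Atf4*, *Atf5*, *Ddit3*, *Trib3* and *Chac1* are called the 5 stress genes below, and *Asns*, *Phgdh*, *Psat1*, *Shmt2* and *Mthfd2* the 5 amino acid genes. Libraries of polyadenylated RNA came from 4 independent clones (6, 20, 30 and 36), each at passage 6 (P6) and again at passage 16 (P16), so that each group held 4 libraries. All cells were wild type, labelled as strain 129S1, derived from blastocysts with GFP in the Rosa26 locus, and kept in DMEM with LIF. The methods of the study name a C57BL6 background for a pair of cultured ES cell clones. Whether these were among the sequenced clones is not stated. Each clone gave 1 library at each passage, and nothing repeated the culture of a clone at the same passage.

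Cells under amino acid shortage, unfolded proteins in the endoplasmic reticulum, haem shortage or viral RNA phosphorylate the initiation factor eIF2α. Translation then falls in general, while the *Atf4* mRNA is translated more, and ATF4 protein raises genes for amino acid uptake and synthesis, redox balance and, if the stress lasts, cell death. This programme is called the integrated stress response. Because much of its control acts on translation, the level of the *Atf4* mRNA is not a measure of ATF4 protein. Serine made by PHGDH and PSAT1 feeds the mitochondrial folate enzymes SHMT2 and MTHFD2, which supply one-carbon units for purine synthesis in dividing cells such as ES cells.

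ATF4 joined to a C/EBP factor binds DNA at a composite element whose core is often written TGATGNAA. RefSeq promoters of GRCm38.p6, from 250 bases before to 50 bases after each listed start, were searched for these letters on both strands. All 10 genes were matched, with 12 promoters among them, and 3 promoters held the core, against 3.97% of the 32851 promoters in the table. The 30 bases around each match are shown on the strand of the gene, with the core in capitals, because these are the places where the members carry the letters of the shared element.
Chac1, chr2:119351038-119351067, plus strand: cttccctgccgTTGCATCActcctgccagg
Trib3, chr2:152344028-152344057, minus strand: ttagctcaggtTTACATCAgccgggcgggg
Asns, chr6:7693214-7693243, minus strand: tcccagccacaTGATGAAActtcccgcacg
In *Chac1* the core began 193 bases before the listed start and lay on the opposite strand. The *Asns* core began 23 bases before the start and read on the strand of the gene. In *Trib3* it began 14 bases after the start, again on the opposite strand. The other 7 genes held no match in these windows, which says nothing about elements elsewhere or spelled with other letters.

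Whether the rows were in register between libraries was examined first, since the values of a gene can only be compared if its name and count were joined correctly. For each library, every name was joined to its read count, and the joined lines were checked for alphabetical order down the table. Lines of 7 libraries broke this order at 130 to 220 places, and those of P6 clone 6 at 2. All but 2 places in each library fell in 644 groups of similar names, with 5080 names or 21.8% of the table. None of the 10 genes was in such a group. Outside the groups the letters of the names alone set the order, so a displaced count there would show no break. No break was found within 10 rows of 9 of the 10 genes, and whether their counts were displaced in another way was not tested. Near *Psat1* there was 1 break, inside a neighbouring group. Of the 20 cytosolic tRNA synthetases, some of whose genes are raised by ATF4, 14 lay in such groups. Restoring the row order changed the values of 5 (*Hars*, *Iars*, *Lars*, *Nars* and *Vars*). Library totals ran from 21394069 to 34295561 reads. The lowest read count of any of the 10 genes was 141, for *Ddit3* in P16 clone 6. With the row order restored, which changed 1 of them, all 10 ES cell markers examined had reads in every library. Their summed level was then between 114990.3 and 125050.3 normalized counts. Normalized counts are reads divided by the size factor of the library, and log2 values below are log2 of the normalized count plus 1.

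Levels were compared between genes only per kilobase of annotated exon (GENCODE vM21, GRCm38). *Asns* was highest, with a mean of 3826 normalized counts per kilobase over the 8 libraries, followed by *Atf4* at 3356, *Psat1* at 2659, *Shmt2* at 2024, *Phgdh* at 1912 and *Mthfd2* at 1371. The stress genes other than *Atf4* were lower, at 673 for *Atf5*, 468 for *Trib3*, 312 for *Ddit3* and 239.7 for *Chac1*. The order of neighbours held in 8 of 8 libraries except for *Shmt2* over *Phgdh* and *Ddit3* over *Chac1*, which held in 6. Only between *Mthfd2* and *Atf5* did the ranges of neighbours not overlap.

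*Atf4* (chr15:80255184-80257541), the factor that gives the programme its name, varied little. At P6 it stood at 6081, 6668, 5017 and 5662 normalized counts in clones 6, 20, 30 and 36, and at P16 at 5435, 5874, 5752 and 5827. P6 clone 20 was highest and P6 clone 30 lowest, and the P16 values lay inside the range of the P6 values. The means were 5857 ± 696 at P6 and 5722 ± 198 at P16 (SD, n = 4). The difference was smaller than the spread between clones, with a log2 fold change of -0.03 (SE 0.0847).

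*Atf5* (chr7:44812256-44816658), a related bZIP factor whose mRNA is under similar translational control, had a wider range. P6 values were 1554, 1633, 979 and 1507 normalized counts in the same order of clones, and P16 values were 876, 1524, 1219 and 1434. Both libraries of clone 30 and P16 clone 6 were low, the other 5 libraries were close together, and the passages overlapped. The log2 fold change was -0.17 (SE 0.219), and 3 of 4 clones were lower at P16.

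*Ddit3* (chr10:127290774-127296288) encodes CHOP, a bZIP factor linked to cell death in prolonged stress. It was the most variable of the 10 genes, with 351, 304, 197 and 364 normalized counts at P6 and 124, 392, 202 and 287 at P16. P16 clone 6 was lowest and P16 clone 20 highest, a 3.17-fold range within a single passage. The SD of its log2 values, 0.569, was larger than that of 92.3% of the names outside displaced groups. No shift between passages emerged, with a log2 fold change of -0.36 (SE 0.363) and 2 clones in each direction. Of the annotated exon bases of *Ddit3*, 9.10% are also exon of genes on the other strand, *Mars* and *Gm4189*; for *Atf5* (*Nup62*, *Il4i1*) and *Shmt2* (*Ndufa4l2*) this share is 8.23% and 1.39%. The library kit keeps strand, but the strand setting of the counting is not given in the sources used here.

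*Trib3* (chr2:152337422-152344032), a pseudokinase that holds back ATF4 and AKT signalling, stood at 1097, 1272, 774 and 942 normalized counts at P6 and at 774, 941, 903 and 883 at P16. P6 clone 20 was again highest, while P6 clone 30 and P16 clone 6 were lowest at almost the same level. The P6 spread was wide, 1021 ± 213, against 875 ± 72.0 at P16 (SD, n = 4). Its log2 fold change was -0.20 (SE 0.151), lower in 3 of 4 clones.

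*Chac1* (chr2:119351229-119354381), which breaks down glutathione, had 437, 454, 369 and 424 normalized counts at P6 and 306, 397, 334 and 418 at P16. Every clone was lower at P16, although the groups overlapped and clone 36 hardly moved. The log2 fold change was -0.22 (SE 0.124). An exact permutation test (two-sided), which ignored the pairing by clone, gave p = 0.143, where 4 against 4 libraries cannot go below 0.0286.

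**Figure D1:**
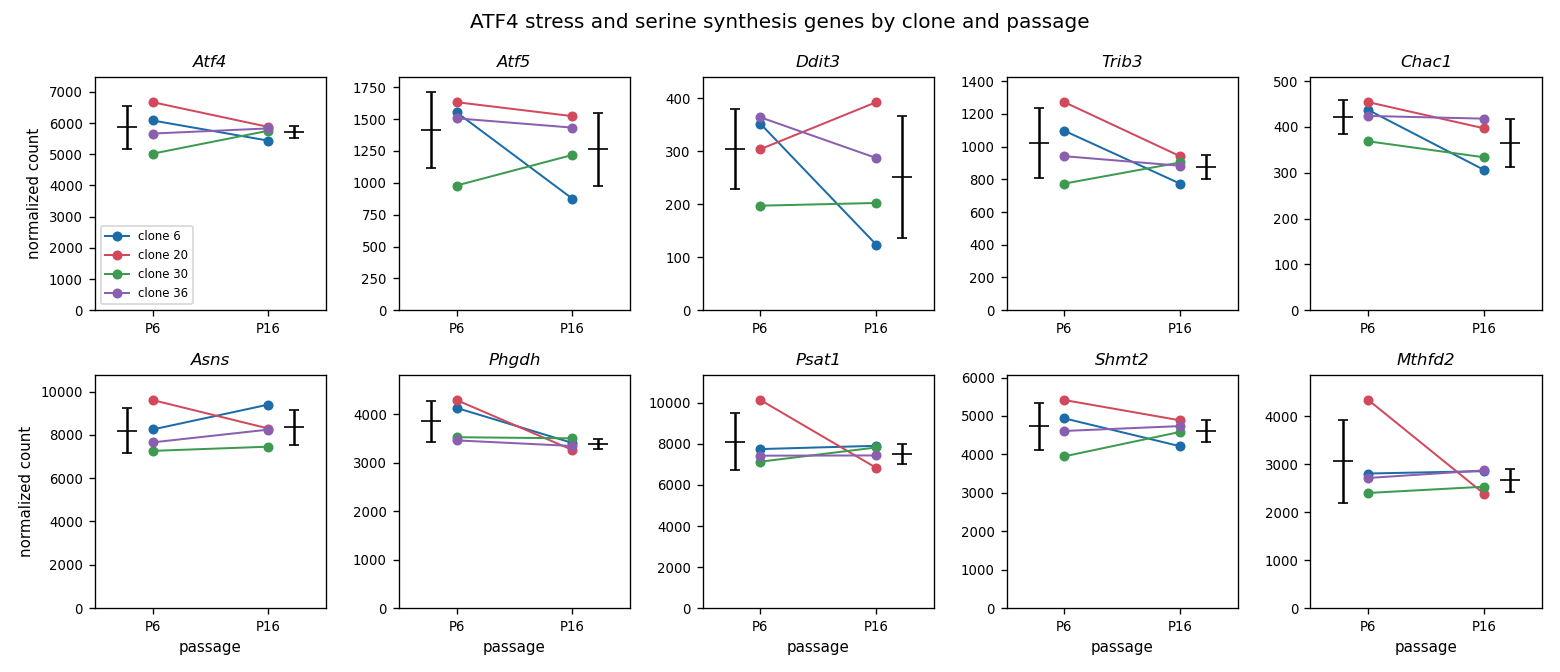
Normalized counts (vertical axes, from 0) of the 10 genes at P6 and P16, with the 2 libraries of each clone joined by a line and the mean ± SD of 4 libraries in black beside the points. P6 clone 20 lies highest in 9 panels, and in *Ddit3* P16 clone 6 falls to 124.

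Among the amino acid genes, *Asns* (chr6:7675169-7693254), asparagine synthetase, was the only member with a positive estimate. It stood at 8249.9, 9610.5, 7262 and 7654 normalized counts at P6 and 9399, 8295, 7456 and 8244 at P16. P6 clone 20 and P16 clone 6 were highest and clone 30 was lowest at each passage. The means, 8194 ± 1028 and 8349 ± 799 (SD, n = 4), differed by less than the spread, with a log2 fold change of 0.03 (SE 0.102).

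*Phgdh* (chr3:98313170-98339990), the enzyme that commits glycolytic carbon to serine synthesis, gave 4134, 4297, 3529 and 3463 normalized counts at P6 and 3411, 3266, 3505 and 3348 at P16. All 4 clones were lower at P16, by most in clones 6 and 20, and only the P16 value of clone 30 reached above the lowest P6 value. The means were 3856 ± 421 and 3382 ± 101 (SD, n = 4), a log2 fold change of -0.18 (SE 0.0788). Its limma p was 0.0491 before adjustment and 0.947 after it, and the exact permutation p, again unpaired, was 0.0571 (two-sided).

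*Psat1* (chr19:15904678-15947337), the aminotransferase of the next step, had 7750.1, 10140.2, 7136 and 7428 normalized counts at P6 and 7909, 6836, 7828 and 7439.7 at P16. P6 clone 20 stood alone, and the other 7 libraries lay between 6836 and 7909. The estimate of -0.10 on the log2 scale (SE 0.112) turned to 0.01 without that library.

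*Shmt2* (chr10:127517123-127522444), the mitochondrial serine hydroxymethyltransferase, stood at 4937, 5415, 3949 and 4609.9 normalized counts at P6 and at 4212, 4886, 4586 and 4736 at P16. As in *Atf4*, P6 clone 20 was highest, P6 clone 30 lowest, and the P16 libraries lay between them. The log2 fold change was -0.03 (SE 0.0982), with 2 clones in each direction.

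*Mthfd2* (chr6:83305691-83325908), the mitochondrial folate dehydrogenase and cyclohydrolase that is high in embryonic and tumour cells, had 2802, 4333, 2398 and 2710.0 normalized counts at P6 and 2851, 2381, 2527 and 2867 at P16. A single library, P6 clone 20, was apart from the others. Its log2 fold change was -0.17 (SE 0.176) with all libraries and 0.01 without P6 clone 20, and 3 of 4 clones were higher at P16.

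Passage was then tested across the whole table. By limma, none of the 10 genes passed an adjusted p of 0.05, with values of 0.947 to 0.974, while 1 of 14791 names tested (0.00676%) passed. That name was *Sox18*, named here although no member; it lies in a group of displaced rows, and no name passed with the row order restored. One of the 10 genes, *Phgdh*, had p under 0.05 before adjustment, against 3.50% of all names, and edgeR and DESeq2 each had 1 member under that value and called none. With the 2 libraries of each clone paired through clone as a replicate block, limma called 0 names and again no member. The estimates of 9 genes were below 0 and that of 1 above, with a median log2 fold change of -0.17 against -0.0037 over all names tested, of which 51.1% were below 0. In 2 of the 10 genes, *Chac1* and *Phgdh*, P16 lay below P6 in all 4 clones, as in 9.14% of names outside displaced groups. The P6 and P16 values overlapped in all 10 genes; they did not overlap in 2.37% of names outside displaced groups.

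**Figure D2:**
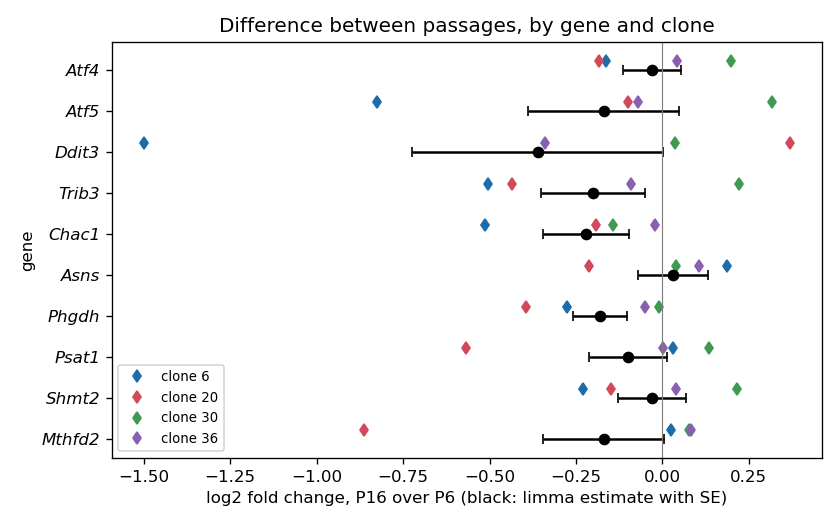
Log2 fold change of P16 over P6 (horizontal axis) for each gene; black points with bars are the limma estimate and its SE, and coloured diamonds are the difference within each of the 4 clones. The clone values of *Chac1* and *Phgdh* all lie below 0, and those of the other 8 genes fall on both sides, with *Ddit3* in clone 6 and *Mthfd2* in clone 20 farthest out.

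The second question was whether the genes follow the clone. The moderated F test of limma called none of the 10 genes between clones, with adjusted p from 0.522 for *Asns* to 0.872 for *Psat1*, while 20 of 14791 names (0.135%) passed. None of the 10 had p under 0.05 before adjustment, against 10.7% of all names, and edgeR and DESeq2 gave 0 as well. Clone accounted for a median of 43.6% of the sum of squares over the 10 genes and passage for 10.5%, with 43.1% left between the libraries of a clone. Over the 12283 names outside displaced groups the medians were 53.4%, 8.35% and 30.4%. These shares are not corrected for the number of groups. With 4 clones against P6 and P16 only, clone takes a larger share than passage even where neither has an effect. *Asns* had the highest clone share, 69.0%, and both libraries of clone 30 were low while both of clones 6 and 20 were close to or above the mean. In *Psat1* clone held 16.8% and the remainder 73.3%.

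Single libraries stood out. P6 clone 20 had the highest value of 9 of the 10 genes, where 19.7% of names outside displaced groups were highest there. The later culture of the same clone did not keep this pattern: P16 clone 20 was the lowest library for *Phgdh*, *Psat1* and *Mthfd2* and the highest for *Ddit3*. P16 clone 6 was lowest for *Atf5*, *Ddit3*, *Trib3* and *Chac1*, the lowest library of 17.0% of names. P6 clone 30 was lowest for *Atf4*, *Asns* and *Shmt2*, against 9.52% of names.

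**Figure D3:**
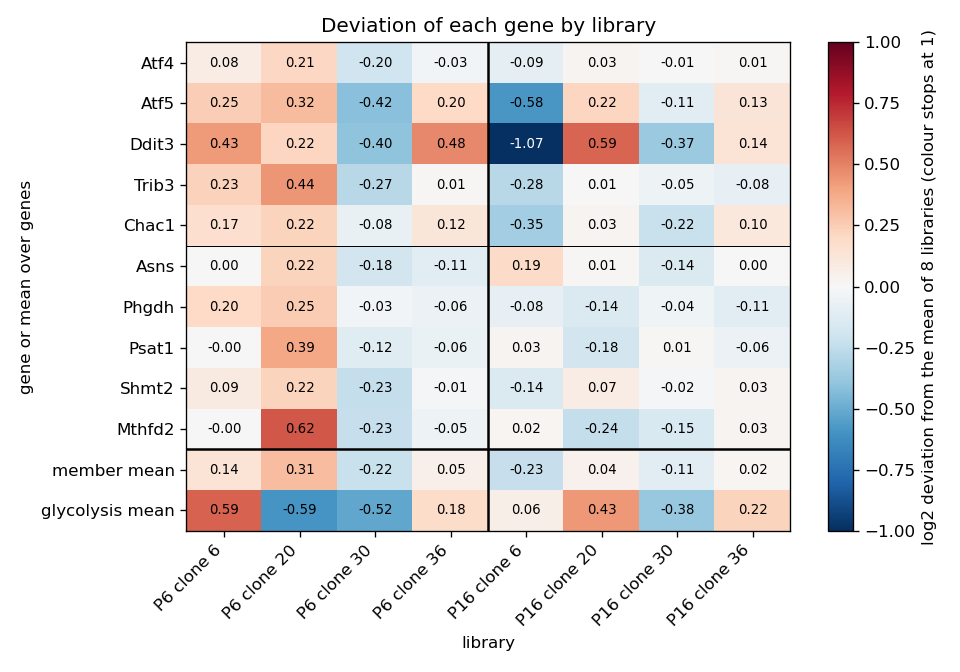
Log2 deviation of each gene from its mean over the 8 libraries (columns, P6 left and P16 right), with the mean over the 10 genes and over 17 glycolysis genes in the lowest rows; red is higher and blue lower. P6 clone 20 is positive for all 10 genes while its glycolysis mean is -0.59, and P16 clone 6 is low for the stress genes but at 0.19 for *Asns*.

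Whether the genes varied together was described by Pearson correlations of log2 values over the 8 libraries, which come as pairs from 4 clones and share their depth and scaling between genes. The mean r over the 45 pairs of genes was 0.58. Over all pairs of names outside displaced groups, where positive and negative r can cancel, it was 3.30e-04. Pairs of stress genes averaged 0.78, pairs of amino acid genes 0.65 and pairs across the sets 0.48. The members were picked as one programme, and this mean fell to 0.34 without P6 clone 20.

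Within the stress genes, *Atf5* with *Ddit3* and *Atf4* with *Trib3* each had r = 0.93. The tightest amino acid pair was *Psat1* with *Mthfd2* at 0.95, a pair set apart by P6 clone 20; its Spearman rho was 0.76. *Shmt2* lay closer to the stress genes than to its own set, a difference that was not tested: r was 0.98 with *Atf4*, 0.93 with *Trib3* and 0.88 with *Atf5*, against 0.56 with *Psat1* and with *Phgdh*. Its rho with *Atf4* was also 0.98. The lowest pair was *Ddit3* with *Asns* at -0.12, and *Ddit3* with *Psat1* gave -0.07.

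**Figure D4:**
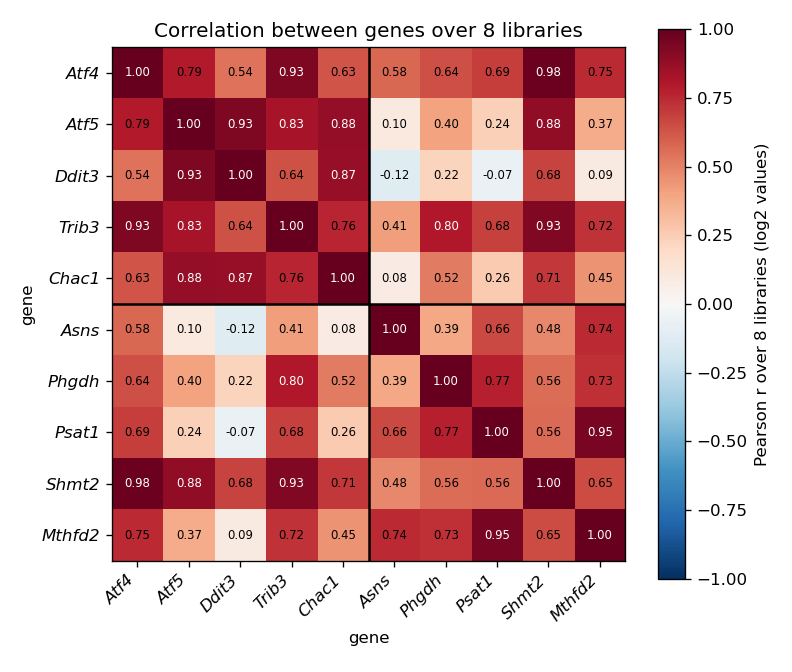
Pearson r between log2 values of each pair of genes over 8 libraries; black lines part the 5 stress genes from the 5 amino acid genes. The row of *Shmt2* reaches 0.98 with *Atf4* and stays between 0.48 and 0.65 within its own set, and *Ddit3* is near 0 against *Asns*, *Psat1* and *Mthfd2*.

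Each set was then reduced to its mean log2 deviation per library. For the stress genes it was 0.23, 0.28, -0.28 and 0.16 at P6 in clones 6, 20, 30 and 36, and -0.47, 0.17, -0.15 and 0.06 at P16. For the amino acid genes it was 0.06, 0.34, -0.16 and -0.06 at P6 and 0.00, -0.10, -0.07 and -0.02 at P16. Thus P6 clone 20 was high and P6 clone 30 low in both, whereas P16 clone 6 was lowest for the stress genes but highest of the P16 libraries for the amino acid genes. The means had r = 0.47 and rho = 0.48 over the 8 libraries. This value was 0.22 without P6 clone 20 and 0.67 without P16 clone 6, so that either library alone moved it. From P6 to P16 the stress mean changed by -0.70 in clone 6 and the amino acid mean by -0.05, while in clone 20 these were -0.11 and -0.44.

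Glycolytic genes were the third axis examined. The mean log2 deviation of 17 glycolysis genes outside displaced groups was 0.59, -0.59, -0.52 and 0.18 at P6 and 0.06, 0.43, -0.38 and 0.22 at P16. Clone 20 went from the lowest glycolysis mean to the second highest, a change of 1.02, while its stress mean changed by -0.11. In clone 6 the glycolysis mean changed by -0.53 and the stress mean by -0.70. In clones 30 and 36 the glycolysis mean changed by 0.14 and 0.04, and the stress mean by 0.13 and -0.10.

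Over the 8 libraries the mean of the 10 genes had r = 0.13 and rho = 0.19 with the glycolysis mean. The stress mean gave r = 0.31 and the amino acid mean -0.24, and single genes ran from -0.51 for *Psat1* to 0.44 for *Ddit3*. None of the 10 genes passed 0.7 in either direction, as 21.8% of names did. This relation rested on P6 clone 20, whose glycolysis mean was lowest while 9 of the 10 genes were at their highest. Without it, r was 0.80 for the 10 genes, 0.70 for the stress mean and 0.67 for the amino acid mean over 7 libraries, and 3 genes passed 0.7 (*Atf4*, *Trib3* and *Shmt2*), against 17.0% of names. Without the libraries at the low end, P6 clone 20 and P6 clone 30, r was 0.71, and without both libraries of clone 30 it was -0.36. *Psat1* stayed near 0 without P6 clone 20, at -0.07. Targets of the hypoxia factor HIF outside glycolysis, 13 of 14 genes, had a mean with r = 0.20 to that of the 10 genes and a median log2 fold change of 0.15 over the list.

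**Figure D5:**
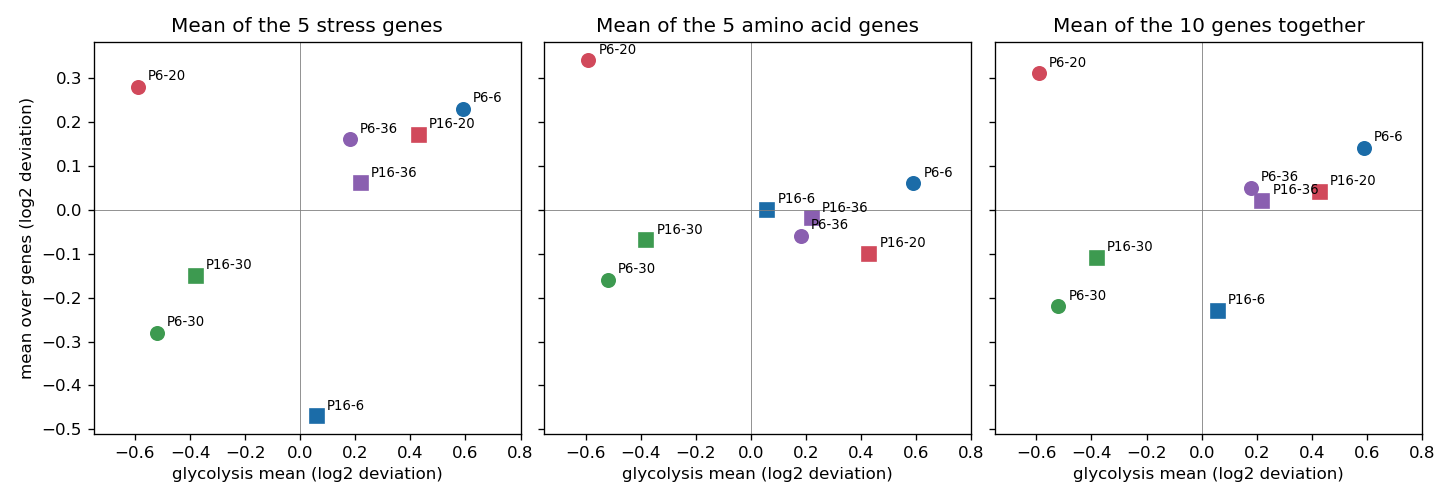
Mean log2 deviation of the stress, amino acid and all 10 genes (vertical axes) against the glycolysis mean (horizontal axis) in each library; circles are P6, squares P16, colours and labels give the clone. P6 clone 20 sits alone at the upper left, at a glycolysis mean of -0.59, and P16 clone 6 lies lowest in the stress panel at -0.47.

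The wider pathway was taken from gene lists, tested with the row order restored so that displaced genes could be included. In the lists for amino acid uptake and synthesis, folate enzymes, tRNA synthetases, other stress genes, unfolded proteins, glycolysis, HIF targets and cell markers, no gene passed the passage or the clone test, as deposited or restored. Amino acid transporters were the list most like the 10 genes. Of 10 transporters 9 had estimates below 0, with a median log2 fold change of -0.15 and 3 at limma p under 0.05 before adjustment. Beside these and the list counts below, 51.1% of all names tested were below 0 as deposited. With the order restored, 513 of 14641 names had limma p under 0.05 before adjustment. The list mean of the transporters, over the 7 outside displaced groups, had r = 0.76 with the mean of the 10 genes. *Slc1a4*, which carries alanine, serine and cysteine, had r = 0.79, and *Slc7a3*, a carrier of arginine and lysine, 0.73. *Slc7a3* stood at 7355, 6669, 5306 and 6968 normalized counts at P6 and 4988, 5278, 5865 and 5606 at P16.

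Other amino acid synthesis genes, 12 in number, had a median log2 fold change of -0.02. The mean of the 11 outside displaced groups followed the amino acid genes, with r = 0.91, more than the stress genes, with 0.13. The difference between these was not tested. *Bcat1*, a branched-chain aminotransferase, had r = 0.77 with the mean of the 10 genes, and *Glul*, glutamine synthetase, 0.71. *Bcat1* was at 16439 normalized counts in P6 clone 20 and between 10564 and 13099 elsewhere. Of 13 other folate and one-carbon genes 10 had estimates below 0, but their median was -0.03. Their list mean had r = -0.14 with the mean of the 10 genes, and *Amt* of the glycine cleavage system had 0.66. Of the 20 tRNA synthetases 17 had estimates below 0, with a median of -0.08. The list mean of the 6 outside displaced groups had r = -0.03 with the mean of the 10 genes, *Eprs* 0.72 and *Kars* -0.51. Without P16 clone 20 and P6 clone 20, a setting chosen after the data were seen, the list mean had r = -0.81.

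Among 15 other stress genes tested, 10 had estimates below 0 with a median of -0.08. The mean of the 14 outside displaced groups had r = 0.84 with the stress mean and 0.08 with the amino acid mean. *Cebpg*, a partner of ATF4, had r = 0.81 with the mean of the 10 genes. *Ppp1r15a*, which encodes the phosphatase subunit GADD34 that reverses eIF2α phosphorylation and is itself a target of the programme, ran the other way at -0.85. It stood at 1736, 1502, 2085 and 1859.6 normalized counts at P6 and 1816, 1757, 1936 and 1804 at P16, lowest in P6 clone 20 and highest in P6 clone 30. *Gdf15*, a secreted stress factor at low level here, had r = 0.57.

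For unfolded proteins, the mean of 14 genes of the endoplasmic reticulum response had r = -0.05 with that of the 10 genes, and the mean of 7 mitochondrial chaperones and proteases had 0.03. Both values depended on few libraries: without the pair farthest from the median of the list mean they were 0.55 (without P6 clones 20 and 30) and -0.53 (without P16 clone 30 and P6 clone 20), a setting chosen after the data were seen. The median log2 fold changes of the lists were 0.08 and -0.02. *Atf6* had r = 0.66 and *Pdia4* -0.45 in the first, *Dnaja3* 0.92 and *Lonp1* -0.57 in the second. Glycolysis genes had a median log2 fold change of 0.12, with 1 of 18 below 0; *Hk1* and *Pfkm*, at r = -0.81 and -0.59, were the glycolysis genes most strongly related to the 10 genes.

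The kinases that phosphorylate eIF2α, and their partners, made up a list of 8 genes with a median log2 fold change of -0.00 by passage. Their list mean had r = -0.64 with the mean of the 10 genes, and the median r of single genes was 0.03. Without P6 clones 20 and 30, a setting chosen after the data were seen, the list mean had r = -0.06. *Eif2ak4*, which encodes the amino acid sensor GCN2, had r = -0.89 with the mean of the 10 genes, at 1049, 886, 1132 and 977 normalized counts at P6 and 1235, 1033, 1095 and 964 at P16. *Eif2ak2*, which encodes the RNA sensor PKR, passed the F test of limma between clones with the row order restored, at an adjusted p of 0.0355. As deposited its adjusted p was 0.236. The adjusted p draws on all names tested, and restoring changed none of the values of *Eif2ak2* itself. It stood at 1579, 963, 4844 and 1825 at P6 and 1101, 1101, 3145 and 1835 at P16. Clone 30 was highest at both passages. Of the 10 genes, 10 were below their mean over the libraries in P6 clone 30, where 48.8% of names outside displaced groups were, and 9 in P16 clone 30, against 48.5%; in the latter *Atf4*, *Shmt2*, *Phgdh* and *Trib3* were below it by about 0.05 or less on the log2 scale.

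Markers of other cells were set beside these values, summed with the row order restored. Restoring changed 3 of the markers of differentiated cells, *Krt8* among them. The summed level of 13 markers of differentiated cells, all of them read in every library, was 14750.0 to 17954 normalized counts at P6 and 5617 to 19808 at P16. The 5617 was P16 clone 6, the library with the lowest stress mean, and the log2 sum had r = 0.81 with the stress mean and 0.10 with the amino acid mean. *Krt8*, *Krt18* and *Nes* make up most of this sum, and *Krt8* alone 40.0%. The mean log2 deviation of the 9 markers outside displaced groups was instead lowest in P16 clone 30, at -0.59, against -0.32 in P16 clone 6. Its r was 0.63 with the stress mean and -0.11 with the amino acid mean. For 10 fibroblast markers the sum ran from 34854 to 44924 at P6 and from 38654 to 44127 at P16, and the log2 sum had r = 0.51 with the stress mean and 0.53 with the amino acid mean; *Fn1* was 66.5% of it, and *Lum* was at 0 in at least 1 library. The total reads of a library had r = -0.58 with the stress mean and -0.01 with the amino acid mean. The part of other cells and of depth in the differences between libraries was not tested, and fewer cells of a type cannot be told apart from less RNA per cell.

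Finally, the names whose pattern was most like the mean of the 10 genes were listed among 9434 names with a mean of at least 100 and outside displaced groups. The 10 closest were *D5Ertd579e*, *Pdlim5*, *Fyn*, *D930048N14Rik*, *Snhg7*, *Cbx6*, *Cd81*, *Neat1*, *8430410A17Rik* and *Kif5c*, with r from 0.95 to 0.98 over the 8 libraries. *Neat1*, a long non-coding RNA of nuclear paraspeckles, had the widest range of these, from 364 normalized counts in P16 clone 6 to 1869 in P6 clone 20. *Fyn*, a kinase of the Src family, ran from 708 to 1049 in the same libraries. Among the lowest were *Depdc5*, *4930534B04Rik*, *Dact1* and *Pbx3*, with r from -0.98 to -0.97. *Depdc5*, part of the complex that holds back mTORC1 when amino acids are short, went from 1636 normalized counts in P6 clone 20 to 2282 in P16 clone 6. Of the 9434 names, 0.901% had r above 0.9 and 0.986% below -0.9.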

How the data were processed

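Polyadenylated RNA of 8 mouse ES cell libraries was sequenced after a strand-keeping Illumina preparation. Per the submitters' processing notes, the authors used TopHat2 2.0.10, Bowtie 1.0.0, SAMtools 0.1.19, HTSeq 0.5.3p9 and DESeq2 with GRCm38 (mm10). The deposited values are a signal: reads per gene name divided by the size factor of the library. Whole reads were recovered from 100.0% of the values, within 0.01 reads, and gave totals of 21394069 to 34295561 per library.

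Names with a mean of at least 10 normalized counts (14791) were tested by limma 3.58.1 on log2(value + 1), with a trend and Benjamini-Hochberg adjustment, between passages without a clone term (the study's model formula is not given in the sources used here) and between clones with a passage term. The edgeR 4.0.16 quasi-likelihood test and DESeq2 1.42.0 on the recovered reads, clone as a replicate block, a restored row order, other scalings, filters and pseudocounts and the loss of each library or clone were alternatives. The limma, edgeR and DESeq2 fits with both the block and the restored order, and the edgeR and DESeq2 clone tests with the restored order, were added after the data were seen. Replicate numbers are clone numbers, and so pair the libraries by cell line; deviations from the passage mean had r = 0.10, 0.27, 0.70 and 0.43 between the libraries of clones 6, 20, 30 and 36, and P6 clone 6 was closer to P16 clone 36 (0.28). Each library is 1 culture, so p-values of the passage test without a clone term measure the spread between clones. Where clone is in the model, p-values rest on the spread between the 2 libraries of a clone after passage is removed. Tests were tried on simulated data first.

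The members and lists were chosen with earlier results of these data known. Besides the members, names were those of list genes past the adjusted threshold, the pair in each pathway list, outside displaced groups, with the strongest r to the member mean, and the 10 highest and 5 lowest r of all names with a mean of at least 100. *Gdf15*, *Sox18* and the 5 synthetases changed by restoring the order were named after their values were seen, and 2 genes that the rule gave are not reported here. The table lists *Pkm* as Pkm2. RefSeq promoters (GRCm38.p6) and GENCODE vM21 (GRCm38) gave sequences and exon lengths.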

Additional observations from a re-analysis of the deposited data

Results flagged for a closer look

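In 28 groups of 4 libraries (each gene and each mean at each passage), 1 held a library far from the others by Dixon's ratio. *Atf5* in P6 clone 30 was at 9.94 on the log2 scale, while the other 3 P6 clones lay between 10.56 and 10.67, a gap of 0.842 of the whole range, past the 95% critical value of that ratio. Chance gives about 1 in 20 such groups, or 1.40 here.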

How the results depend on the processing

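No member passed the threshold in any of the 28 alternatives of the passage test or the 25 of the clone test, where the lowest adjusted p was 0.588 (*Phgdh*, DESeq2 with clone as replicate block) and 0.185 (*Mthfd2*, without P16 clone 20). The counts of all names did change. By passage, 1 name passed by limma, 0 without displaced groups or with the order restored, 46 by DESeq2, and 1 to 26 on leaving out a library or clone. With clone as a replicate block these were 0 by limma, 2 by edgeR and 98 by DESeq2, or 0, 0 and 40 with the order restored as well. By clone, 20 names passed, 62 without displaced groups, 89 with the order restored (93 by edgeR, 852 by DESeq2), 1121 by DESeq2 as deposited, and 0 to 164 on leaving out a library or clone. The block changed no call of a member. On leaving out a library or clone, the log2 fold change turned direction for *Atf4* (-0.10 to 0.04), *Atf5* (-0.34 to 0.05), *Ddit3* (-0.61 to 0.02), *Asns* (-0.03 to 0.11), *Psat1* (-0.18 to 0.06), *Shmt2* (-0.11 to 0.04) and *Mthfd2* (-0.27 to 0.06), none of them called. The mean r between members, 0.58, was 0.47 by Spearman, 0.48 within clones and 0.34 to 0.68 on leaving out a library or clone. The r of 0.47 between the stress and amino acid means was 0.28 within clones, 0.62 at unit variance per gene and 0.22 to 0.67 on leaving out. The r of 0.13 with glycolysis ran from -0.36 to 0.80 on leaving out, and was 0.71 without the pair of libraries farthest from the glycolysis median. The cause of these changes was not tested, except that P6 clone 20 alone moves all 3 correlations. With 2 libraries per clone, shifts in *Ddit3*, the gene with the fewest reads and the largest spread, would be the hardest to detect.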
